A study of Homo sapiens with 6 samples.

Results

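The 36 genes described here encode proteins of the human centromere, the chromosome region that carries the histone variant CENPA, and of the kinetochore, the protein assembly that forms on it and binds spindle microtubules. They were taken from the deposited gene table by symbol, by a rule that holds no measured value. Earlier results of these data were known, however, when the genes and the lists set beside them were chosen. All 36 were among the 34738 genes listed, and all 36 passed the filter of a mean FPKM of at least 1 over the libraries, which left 11867 genes for testing. By the assembly to which each protein belongs, 4 genes encode CENPA and its loading factors (CENPA, HJURP, MIS18A, OIP5). A further 14 encode the constitutive centromere-associated network, CCAN (CENPC, CENPH, CENPI, CENPK, CENPL, CENPM, CENPN, CENPO, CENPP, CENPQ, CENPT, CENPU, CENPW, CENPX). The KMN network, named after KNL1, the MIS12 complex and the NDC80 complex, is represented by 10 genes (NDC80, NUF2, SPC24, SPC25, DSN1, MIS12, NSL1, PMF1, KNL1, ZWINT). The SKA complex is represented by 3 (SKA1, SKA2, SKA3) and the outer corona by 5 (CENPE, CENPF, ZW10, KNTC1, SPDL1).

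RNA of thyroid cancer cells was sequenced in 2 groups of 3 libraries each. The siGDF15 group received a small interfering RNA against GDF15, a secreted stress-induced cytokine of the TGF-beta superfamily, and the NC group was its control. The labels give the line as KHM-5M for all 6 libraries, whereas a figure legend of the study names TPC-1 (both are human thyroid cancer lines), and the control is a negative control siRNA in the methods but a blank control in the deposited description. Neither point was settled here. Should the NC cells have gone without an siRNA, transfection itself is part of every difference given below. The labels do not say whether the libraries came from separate cultures, although the methods speak of biological replicates, so the p-values measure the spread between these libraries.

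In each cell cycle the chaperone HJURP and the Mis18 complex place new CENPA at centromeres, and CENPA nucleosomes are held by CCAN, which stays on the centromere throughout the cycle. At mitosis CCAN recruits the KMN network, whose NDC80 complex grips the microtubule end and whose KNL1 subunit is the platform for the spindle checkpoint. The SKA complex steadies this grip, and the corona captures microtubule sides and brings dynein to the kinetochore. Transcripts of many, but not all, of these proteins are more abundant in dividing cells, and a shared promoter element called the cell cycle genes homology region (CHR) is known from several of them.

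Total expected counts were between 67569576 and 68025163 in NC and were 67672774, 51738814 and 67793417 in siGDF15 replicates 1 to 3, and the lowest count of any of the 36 genes in any library was 302. The targeted gene GDF15 had FPKM values of 22.4, 19.3 and 23.1 in NC and of 10.8, 10.5 and 10.7 in siGDF15, a log2 fold change of -0.92 (SE 0.079, adjusted p = 2.4e-05). All siGDF15 libraries were below all NC libraries. Among thyroid lineage markers, PAX8 was at 54.3 to 64.9 FPKM in NC and 77.5 to 80.4 FPKM in siGDF15 and rose (log2 fold change 0.53, adjusted p = 0.00012). FOXE1 was at 2.53 to 2.94 FPKM over the 6 libraries, TG, under the filter, stood at 0.0346 to 0.0708 FPKM in NC and 0.162 to 0.219 FPKM in siGDF15, and NKX2-1 and SLC5A5 were at or near 0 in all 6 libraries. Of 5 epithelial markers 1 rose, CDH1, with overlapping groups (0.607 to 1.44 FPKM, adjusted p = 0.049), and the keratin KRT18 was at 78.1 to 109 FPKM. Of 7 fibroblast and blood cell markers 2 passed the filter, LUM, the highest, and PDGFRB. These 2 summed to 5.84 to 7.66 FPKM in NC and 5.93 to 7.16 FPKM in siGDF15. Under the filter, DCN was at 0.465 to 0.631 FPKM and PECAM1 at 0.0726 to 0.161 FPKM over the 6 libraries. CD14, also under the filter, stood at 0.107 to 0.249 FPKM in NC and 0.592 to 0.739 FPKM in siGDF15. PTPRC and CD3E were at or near 0. Mitochondrially encoded genes held 6.39 to 6.78% of counts in NC and 8.53 to 9.17% in siGDF15, and the part of this difference in the results below was not tested.

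RefSeq windows from 250 bases before to 50 bases after the annotated start (GRCh38.p14) were at hand for 30 of the 36 genes. No entry was matched for CENPH, CENPL, CENPM, KNL1, KNTC1 and MIS18A. The windows were searched on both strands for the CHR letters, for CCAAT and for TTTNNCGC, a core of E2F sites. The CHR letters were TTTGAA, which reads as TTCAAA on the other strand, and the palindromic form TTCGAA. These sequences are shown because genes that carry the CHR letters near the start lie in all 5 assemblies. CENPN, CENPO, ZWINT and SPDL1 also hold them within 50 bases of the start, and their stretches are not printed. The log2 fold changes of these genes were -1.40, -1.25, -1.70 and -1.19. Each stretch of 30 bases is written 5′ to 3′ on the strand of the gene, with the CHR letters in capitals.
CENPA (chr2:26786026-26786055, plus strand): cggagcgagcgaTTTGAAcgcgagcggcgc
OIP5 (chr15:41332573-41332602, minus strand): gcctggcgtgtaTTCGAAaggaaggcgccg
CENPW (chr6:126340120-126340149, plus strand): gttggcggcggaTTCGAAcgttcggactga
NDC80 (chr18:2571545-2571574, plus strand): gcggagaatTTCAAATTCGAAcggctttgg
NUF2 (chr1:163321958-163321987, plus strand): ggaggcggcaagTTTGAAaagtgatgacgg
SPC25 (chr2:168890416-168890445, minus strand): aagtgcactaggTTTGAAatcggaaagttg
SKA1 (chr18:50375066-50375095, plus strand): ggcgcggcgggcggTTTGAAttttgcttac
SKA3 (chr13:21176538-21176567, minus strand): ccggcgccgagaTTCAAActagtggcggga
CENPF (chr1:214603215-214603244, plus strand): ccggtggcggctgcgggcagTTTGAAttag
The match in CENPA began at position -18 from the RefSeq start, and those in SPC25 and SKA3 spanned it. NDC80 held 2 adjoining matches, TTCAAA and TTCGAA. The SKA2 window held no CHR letters but 5 CCAAT matches, as did that of CENPX, which fell (log2 fold change -0.74, adjusted p = 8e-05). The 250 bases before the start of SKA2 are shown with CCAAT in capitals, because SKA2 was the gene whose values stood apart from its partners.
SKA2 (chr17:59155187-59155436, minus strand): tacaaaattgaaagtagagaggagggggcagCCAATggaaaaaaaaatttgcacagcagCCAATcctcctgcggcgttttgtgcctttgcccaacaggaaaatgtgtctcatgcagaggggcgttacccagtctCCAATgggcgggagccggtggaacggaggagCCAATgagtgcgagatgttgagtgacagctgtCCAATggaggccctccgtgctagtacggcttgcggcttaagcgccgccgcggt

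In siGDF15 cells, transcripts of nearly the whole centromere and kinetochore set were lower than in NC cells. Of the 36 genes, 34 fell (adjusted p under 0.05), 0 rose and 2 did not pass the test, SKA2 and ZW10. Among all tested genes 31.4% were called lower and 30.0% higher, 61.4% together. At the study's threshold, which adds a change of at least 2-fold, 27 of the 36 fell and 0 rose, against 4.78% and 3.03% of all tested genes. In 35 of the 36 the highest siGDF15 library stayed under the lowest NC library, which held for 42.8% of all tested genes. All siGDF15 libraries were above all NC libraries in 0 of the 36 and in 25.6% of all tested genes. These comparisons used the deposited FPKM, without the scaling between libraries that the test used. The median log2 fold change of the 36 was -1.60, against 0.00 over all tested genes, with a range from -1.99 (CENPI) to 0.11 (SKA2). Scaling by library totals alone moved the split of all tested genes from 3721 lower and 3565 higher to 4679 lower and 2701 higher and the median of all genes to -0.099, with 35 of the 36 then called lower.

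Summed over the 36 genes, FPKM was 556.6, 548.6 and 567.4 in the NC libraries and 215.7, 200.4 and 200.4 in the siGDF15 libraries. The median gene stood at 12.8 FPKM in NC and 4.26 FPKM in siGDF15. The median coefficient of variation of the 36 genes in NC was 5.81%, below the 6.82% of all tested genes. In siGDF15 it was 8.53%, above the 4.84% of all tested genes. Most of the 36 genes had fewer counts there, and the part of counting noise in this value was not tested. These libraries are of bulk RNA, in which fewer dividing cells and less RNA per cell cannot be told apart. A list of 12 markers of cycling cells moved alongside. All 12 fell, with log2 fold changes from -1.91 to -1.20 and a median of -1.69, and their summed FPKM was 837.2 to 883.7 in NC and 251.7 to 289.2 in siGDF15. The 3 of lowest adjusted p among them were CDK1, the kinase that drives entry into mitosis (-1.87, SE 0.049, adjusted p = 2.8e-07), RRM2, a subunit of ribonucleotide reductase (-1.89, SE 0.064, adjusted p = 4.5e-07), and TPX2, a spindle assembly factor (-1.64, SE 0.060, adjusted p = 5.5e-07). The part of the share of cycling cells in the changes of the 36 genes was not tested.

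**Figure D1:**
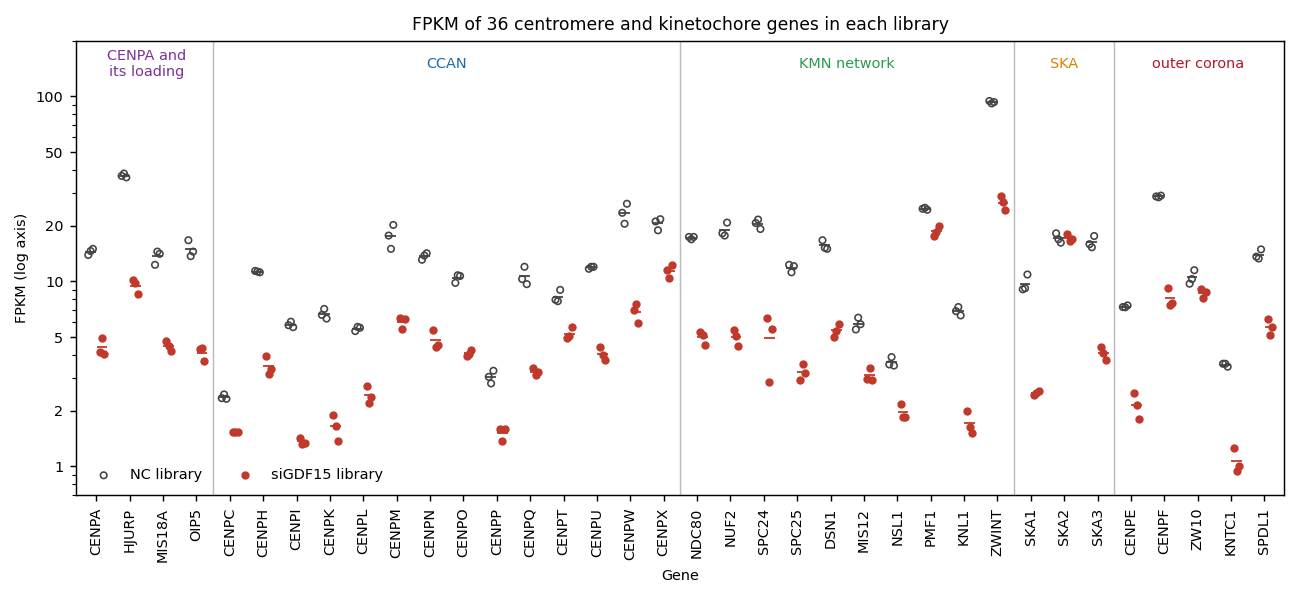
FPKM (log axis) of each of the 36 genes in every library, grouped by assembly, with open grey points for NC, filled red points for siGDF15 and a bar at the mean of each group of 3. The siGDF15 points lie below the NC points in 35 genes, SKA2 is the gene whose groups overlap, and the siGDF15 points of SPC24 spread from 2.87 to 6.36 FPKM.

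CENPA and its 3 loading factors all fell, each by more than 2-fold, with log2 fold changes from -1.87 to -1.50 and a median of -1.68. CENPA (ENSG00000115163, chr2:26764289-26801067, plus strand), the histone H3 variant that marks the centromere, had FPKM values of 13.9, 14.6 and 15.0 in NC and of 4.18, 4.96 and 4.06 in siGDF15. The groups were far apart and their own libraries close together, with means of 14.5 ± 0.518 and 4.40 ± 0.487 FPKM (SD, n = 3 each). Its log2 fold change was -1.61 (SE 0.095, adjusted p = 3.2e-06). HJURP (ENSG00000123485, chr2:233833416-233854566, minus strand), the chaperone that carries CENPA to the centromere, was the second most abundant of the 36, at 37.2, 38.3 and 36.5 FPKM in NC and 10.2, 9.78 and 8.57 FPKM in siGDF15. The groups did not overlap, and the log2 fold change was -1.87 (SE 0.069, adjusted p = 5.6e-07). The subunits of the Mis18 complex, which prepares the centromere for new CENPA, were MIS18A at -1.50 (SE 0.093, adjusted p = 4.1e-06) and OIP5, also named Mis18-beta, at -1.75 (SE 0.11, adjusted p = 5.4e-06). The ratio of MIS18A to HJURP in FPKM was 0.365 on average in NC and 0.473 in siGDF15.

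Counts of 11 of the 36 genes could hold reads of a second gene, since they overlap a gene with a mean FPKM of at least 1. The libraries marked strand, and the strand setting of the counting is not given in the sources used here. CENPA overlaps SLC35F6 on the same strand, which rose (log2 fold change 0.67, adjusted p = 1.7e-05), while OIP5 overlaps NUSAP1 on the opposite strand, which fell (-1.56, adjusted p = 8.2e-07). CENPU overlaps PRIMPOL at one end on the opposite strand, which fell as well (-1.53, adjusted p = 8.9e-06).

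All 14 CCAN genes fell, 10 of them by at least 2-fold, with a median log2 fold change of -1.42 and a range from -1.99 to -0.51. The network was uneven by subcomplex. CENPH, CENPI, CENPK and CENPM, which form one subcomplex, all fell by at least 2-fold, with a median of -1.75. CENPI (ENSG00000102384, chrX:101098188-101166126, plus strand) had the largest fall of the 36 in this fit and ranked 26th from the lowest among 11867 genes. SPC24 lay lower than CENPI under limma on FPKM with either pseudocount, with the replicate block and without siGDF15 replicate 1 or 3. The FPKM of CENPI was 5.80, 6.06 and 5.66 in NC and 1.43, 1.33 and 1.34 in siGDF15. With no overlap, siGDF15 libraries held 23.4% of the NC mean (log2 fold change -1.99, SE 0.062, adjusted p = 4.2e-07). CENPK stood at -1.90, CENPH at -1.59 and CENPM at -1.43.

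The CENPO, CENPP, CENPQ and CENPU genes encode most of a subcomplex that, through CENPU, is known to recruit the kinase PLK1. Their median log2 fold change was -1.35, and 3 of the 4 fell by at least 2-fold. CENPU (ENSG00000151725, chr4:184694085-184734130, minus strand) was at 11.7, 12.0 and 12.0 FPKM in NC and at 4.41, 4.0 and 3.78 FPKM in siGDF15. Its NC libraries were nearly equal (11.9 ± 0.163 FPKM, SD, n = 3), all 3 siGDF15 libraries were lower, and the log2 fold change was -1.44 (SE 0.069, adjusted p = 1.2e-06). CENPQ fell by 1.61 on the log2 scale, CENPO by 1.25 and CENPP, the least abundant of the 4 at 3.05 FPKM in NC, by 0.89. CENPL and CENPN, whose products bind the CENPA nucleosome and join CCAN to it, stood at -1.08 and -1.40.

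The smallest changes in CCAN were those of CENPC, CENPT and CENPX. CENPC, the scaffold that binds the CENPA nucleosome and, at its other end, the MIS12 complex, was the gene of lowest FPKM among the 36 in NC. It had 2.34, 2.45 and 2.32 FPKM in NC and 1.54 FPKM in each of the 3 siGDF15 libraries, a log2 fold change of -0.51 (SE 0.065, adjusted p = 0.0002). CENPT, the other link from CCAN to the outer kinetochore, had -0.55 (SE 0.082, adjusted p = 0.0005) and CENPX had -0.74 (SE 0.080, adjusted p = 8e-05). The histone fold partner of CENPT, CENPW, had -1.67 (SE 0.13, adjusted p = 1.5e-05). CENPT and CENPW form a dimer, and the ratio of their FPKM was 0.338, 0.381 and 0.342 in NC and 0.706, 0.669 and 0.955 in siGDF15. CENPC and CENPT, which contact the KMN network directly, kept 65.0% and 63.2% of their NC mean FPKM, while CENPW kept 29.1%. CENPT is one of the genes that overlap others. On the opposite strand lie NUTF2 (log2 fold change 0.03, adjusted p = 0.8) and THAP11 (-0.18, adjusted p = 0.023). The part of their reads in the CENPT values and in its ratio to CENPW was not tested.

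All 10 KMN network genes fell, 7 of them by at least 2-fold, with a median of -1.69. The 4 genes of the NDC80 complex lay close together, from -1.95 to -1.68. NDC80 (ENSG00000080986, chr18:2571557-2616635, plus strand), the subunit that binds the microtubule, was at 17.4, 16.9 and 17.4 FPKM in NC and 5.32, 5.12 and 4.53 FPKM in siGDF15. Both groups were tight, with means of 17.2 ± 0.246 and 4.99 ± 0.407 FPKM (SD, n = 3 each), and the log2 fold change was -1.68 (SE 0.073, adjusted p = 8.7e-07). Its coiled-coil partner NUF2 had -1.81 (SE 0.097, adjusted p = 2e-06), and SPC25, of the dimer at the centromere end, had -1.77 (SE 0.10, adjusted p = 2.6e-06). Its dimer partner, SPC24, varied among the siGDF15 libraries, with 6.36, 2.87 and 5.55 FPKM against 20.7, 21.6 and 19.2 FPKM in NC. Library siGDF15 replicate 2, the one of lowest total count, was the low one. All 3 were below NC, the log2 fold change was -1.95 (SE 0.23, adjusted p = 0.00016), and without that library it was -1.68.

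In the MIS12 complex, which links CCAN to the NDC80 complex and KNL1, all 4 genes fell but DSN1 alone did so by 2-fold or more. DSN1 stood at -1.42 (SE 0.079, adjusted p = 2.4e-06), MIS12 at -0.82 (SE 0.098, adjusted p = 0.00015), NSL1 at -0.79 (SE 0.078, adjusted p = 5.1e-05) and PMF1 at -0.29 (SE 0.057, adjusted p = 0.0022). PMF1 was at 24.7, 25.0 and 24.4 FPKM in NC and at 17.7, 18.5 and 19.9 FPKM in siGDF15. It shares exons with the readthrough gene PMF1-BGLAP, which did not pass the test (-0.04, SE 0.16, adjusted p = 0.84), so the division of reads between the 2 genes is uncertain. The FPKM of PMF1 was 1.48, 1.65 and 1.62 times that of DSN1 in NC and 3.52, 3.44 and 3.39 times in siGDF15.

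ZWINT and KNL1 encode partners at the checkpoint platform. ZWINT (ENSG00000122952, chr10:56357227-56361266, minus strand) was the most abundant of the 36, at 94.5, 91.7 and 93.2 FPKM in NC and 28.9, 26.8 and 24.4 FPKM in siGDF15. The groups did not overlap, and its log2 fold change was -1.70 (SE 0.065, adjusted p = 6e-07). KNL1 stood at -1.91 (SE 0.10, adjusted p = 2e-06).

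**Figure D2:**
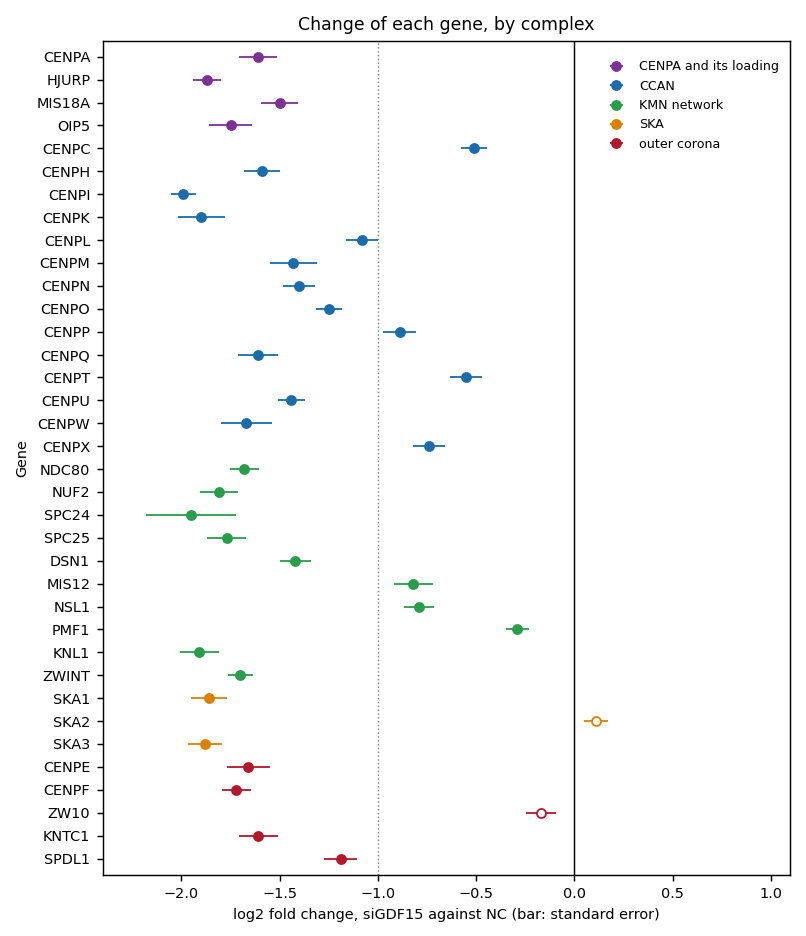
Log2 fold change of siGDF15 against NC for each gene (points, bars are standard errors), coloured by assembly, with filled points for genes past the test, open points for those that did not pass and a dotted line at 2-fold lower. Of the 36 genes 27 lie at or left of the dotted line, and the 9 to its right are CENPC, CENPP, CENPT, CENPX, MIS12, NSL1, PMF1, SKA2 and ZW10.

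The SKA complex contained the widest difference between partners among the pairs compared. SKA1 (ENSG00000154839, chr18:50375040-50394168, plus strand) carries the microtubule-binding domain, and its FPKM was 9.07, 9.19 and 10.9 in NC and 2.43, 2.49 and 2.55 in siGDF15. Those 3 siGDF15 values were nearly equal and held 25.6% of the NC mean, and the log2 fold change was -1.86 (SE 0.093, adjusted p = 1.5e-06). SKA3 (ENSG00000165480, chr13:21153595-21176551, minus strand), through which the complex is recruited to NDC80, had 15.9, 15.3 and 17.6 FPKM in NC and 4.44, 4.12 and 3.74 FPKM in siGDF15. The groups did not overlap (log2 fold change -1.88, SE 0.087, adjusted p = 1.1e-06), and the ratio of SKA3 to SKA1 was 1.68 in NC and 1.64 in siGDF15.

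SKA2 (ENSG00000182628, chr17:59109857-59155248, minus strand), the third subunit of the same complex, was at 18.2, 16.9 and 16.2 FPKM in NC and at 18.0, 16.6 and 16.9 FPKM in siGDF15. The groups overlapped, with means of 17.1 ± 0.999 and 17.2 ± 0.754 FPKM (SD, n = 3 each). Its log2 fold change was 0.11 (SE 0.059, adjusted p = 0.13), with a 95% confidence interval from -0.02 to 0.25. The interval therefore holds no fall of the size seen in SKA1 or SKA3. The FPKM of SKA2 was 2.00, 1.84 and 1.49 times that of SKA1 in NC and 7.43, 6.67 and 6.63 times in siGDF15, a difference in log2 ratio of 1.97 (SE 0.14). The exact permutation test over libraries (two-sided) gave p = 0.1, the smallest that 3 libraries against 3 allow.

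In the outer corona 4 of 5 genes fell, all 4 by at least 2-fold, and ZW10 did not pass the test. CENPF (ENSG00000117724, chr1:214603195-214664571, plus strand), a large coiled-coil protein of the corona, was the third most abundant of the 36. It stood at 28.8, 28.5 and 29.1 FPKM in NC and at 9.16, 7.49 and 7.68 FPKM in siGDF15, with no overlap (log2 fold change -1.72, SE 0.073, adjusted p = 8.1e-07). CENPE, a plus-end-directed kinesin that moves chromosomes to the spindle equator, stood at -1.66 (SE 0.11, adjusted p = 5.9e-06).

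KNTC1 and ZW10 encode the ROD and ZW10 subunits of the RZZ complex, which brings dynein to the kinetochore through the adaptor encoded by SPDL1. KNTC1 (ENSG00000184445, chr12:122527246-122626396, plus strand) had 3.59, 3.59 and 3.46 FPKM in NC and 1.26, 0.946 and 1.01 FPKM in siGDF15. The siGDF15 libraries lay well below (log2 fold change -1.61, SE 0.099, adjusted p = 4e-06). SPDL1 stood at -1.19 (SE 0.082, adjusted p = 7e-06). ZW10 (ENSG00000086827, chr11:113733187-113773692, minus strand), which also acts in membrane transport outside mitosis, had 9.72, 10.3 and 11.5 FPKM in NC and 9.09, 8.12 and 8.78 FPKM in siGDF15. Its siGDF15 libraries were all below NC by a small margin, and the log2 fold change of -0.17 (SE 0.078) had an adjusted p of 0.083 and a 95% confidence interval from -0.35 to 0.00. ZW10 passed the test with library totals in place of TMM normalization (-0.28, adjusted p = 0.015). The FPKM of KNTC1 was 0.338 times that of ZW10 on average in NC and 0.123 times in siGDF15.

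The design allowed 22 ratios between partners of a complex to be compared, each in every library. With 3 libraries per group none could pass, since the smallest exact p of 0.1 became 0.14 after Benjamini-Hochberg adjustment over the 22, so the ratios are given as values. Beside those named above, the ratio of CENPX to CENPW was 0.880 in NC and 1.68 in siGDF15, and that of SPDL1 to ZW10 was 1.33 in NC and 0.654 in siGDF15. Within the NDC80 complex, NUF2 to NDC80 went from 1.1 to 1.0 and SPC25 to NDC80 from 0.690 to 0.649. SPC24 to NDC80 went from 1.19 to 0.937 with overlapping groups, and siGDF15 replicate 2 stood apart at 0.562. OIP5 to HJURP went from 0.400 to 0.434 with overlapping groups.

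**Figure D3:**
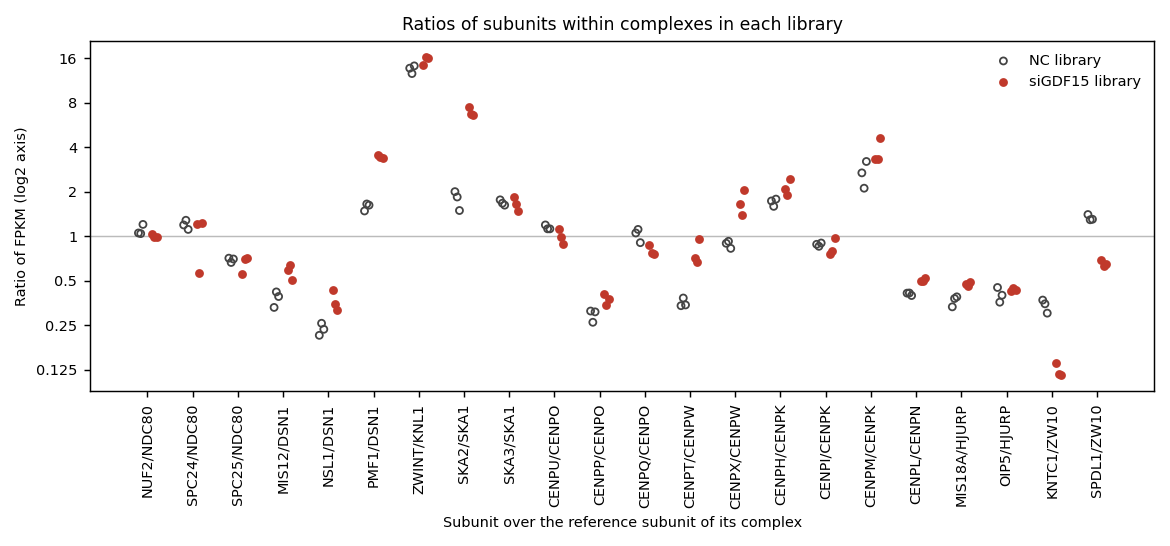
Ratio of the FPKM of 2 partners in each library (log2 axis) for the 22 pairs compared, open grey for NC and filled red for siGDF15. In 12 pairs all siGDF15 points lie above NC, among them those with SKA2, PMF1, CENPT and CENPX as first gene. In 4 pairs all lie below, among them the pairs over ZW10. The other 6 overlap, among them SKA3/SKA1 (mean 1.68 in NC and 1.64 in siGDF15). The side of a pair depends on which gene is the reference, and no share was worked out for ratios of other genes. Of single tested genes, 42.8% had all siGDF15 libraries below NC and 25.6% had all above.

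Set against all tested genes, the 36 lay mostly at the low end of the distribution of log2 fold changes. The lowest 1% of tested genes held 11 of them, the lowest 5% held 27 and the lowest 10% held 31. None had a log2 fold change under -2, and 27 lay between -2 and -1. The genes were spread over 19 chromosomes. In the pathway annotation deposited with the table, 0 of the 36 were in the KEGG cell cycle pathway and 1 (CENPX) had any KEGG entry, whereas 30 were in the Reactome pathway of kinetochore capture and 19 in that of CENPA nucleosome deposition.

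**Figure D4:**
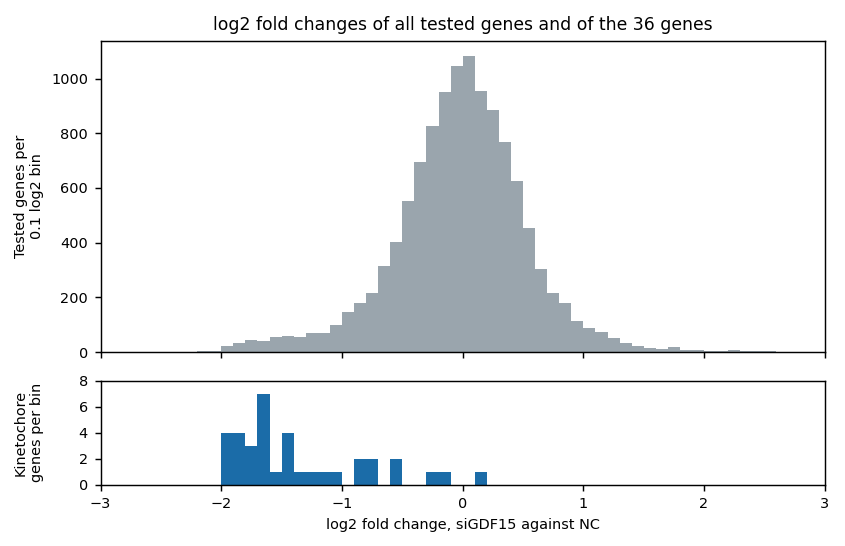
Number of genes per bin of 0.1 in log2 fold change (siGDF15 against NC), for all 11867 tested genes above and for the 36 genes below. All tested genes centre on a median of 0.00, while 27 of the 36 lie between -2 and -1 and SKA2 is the gene above 0.

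A second list took in 37 further genes of the inner centromere, the spindle checkpoint, the chromosomal passenger complex and the corona. Of the 36 that were tested (CENPV was under the filter), 29 fell, 2 rose and 5 did not pass, with 18 at 2-fold lower or more and a median of -1.12. The 6 tested inner centromere genes had a median of -0.60 and 5 fell. RBBP7, a histone chaperone subunit with roles beyond the centromere, was among them (-0.68, SE 0.046, adjusted p = 6.6e-06). ITGB3BP, the CENPR subunit that binds CENPU and CENPQ, had a log2 fold change of -0.86 (SE 0.093, adjusted p = 8.3e-05).

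Of the 30 checkpoint, passenger and corona genes 24 fell, 17 of them by at least 2-fold, with a median of -1.43. INCENP, the scaffold of the Aurora B kinase, had a log2 fold change of -1.53 (SE 0.050, adjusted p = 4.3e-07). KIF2C, a microtubule-depolymerizing kinesin, had -1.63 (SE 0.057, adjusted p = 4.7e-07) and SPAG5, also named astrin, had -1.88 (SE 0.067, adjusted p = 4.9e-07). The genes that rose were NDEL1 (0.29, SE 0.059, adjusted p = 0.0033) and PAFAH1B1 (0.15, SE 0.048, adjusted p = 0.024), both dynein regulators that also act in interphase. The groups of PAFAH1B1 overlapped, and its call was lost under 9 of the alternatives run.

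The promoter letters can be set beside the changes as a description. CHR letters were present in 16 of the 30 genes with a window (53.3%), against 19.5% of 27305 genes in the RefSeq table. CCAAT was in 20 of 30 (66.7%, against 39.7%) and TTTNNCGC in 6 of 30 (20%, against 8.23%). Within 50 bases on either side of the start, a span chosen after the positions were seen, 13 of 30 held CHR letters (43.3%, against 6.24%). The 30 genes all passed the expression filter, while the 27305 were not limited to such genes, so the shares are of unlike sets. A match of letters is not evidence of a bound site, and no test was run on these shares.

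The 16 genes with CHR letters had a median log2 fold change of -1.69, and 15 of them fell, 14 by at least 2-fold. The exception to a fall was ZW10, whose match began at position -224. The other gene under 2-fold was CENPC, with a match from -90. The match of HJURP began at -111, also away from the start, and HJURP had a log2 fold change of -1.87. The 14 genes without them had a median of -1.16, 13 fell and 7 did so by at least 2-fold. These 14 held CENPP, CENPT, CENPX, MIS12, NSL1, PMF1 and SKA2, which changed by less than 2-fold, but also CENPI, SPC24 and CENPK, which were among the largest falls. Absence says only that these letters are not in this window.

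**Figure D5:**
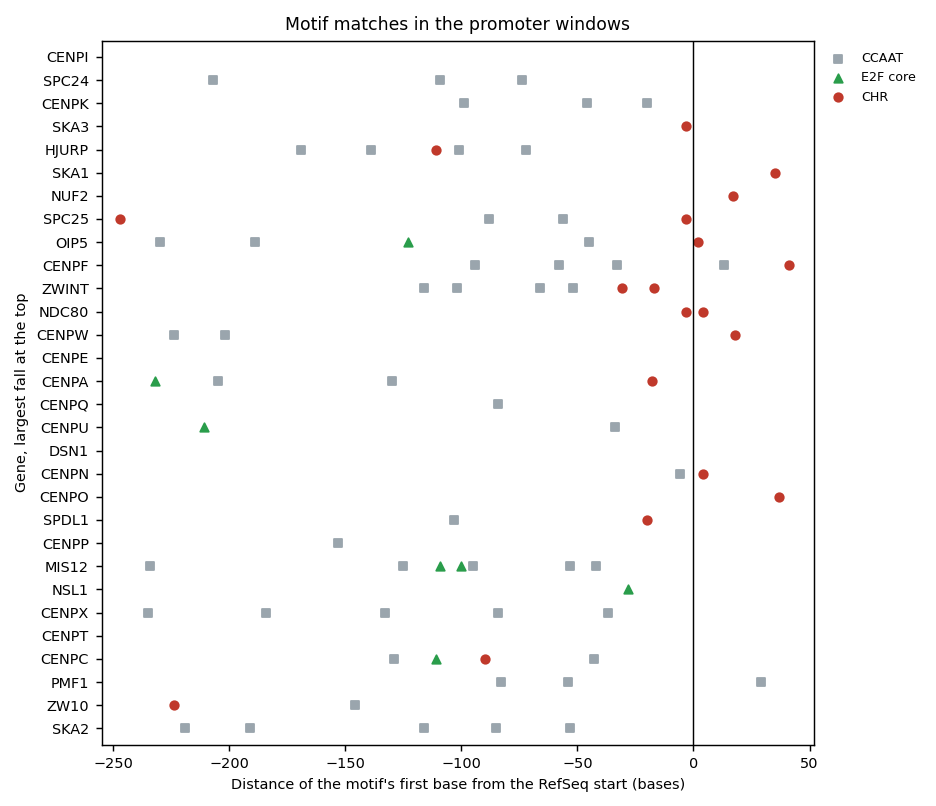
Position of each match to CCAAT (grey squares), TTTNNCGC (green triangles, E2F core) and the CHR letters (red circles) in bases from the RefSeq start, for 30 genes ordered from the largest fall (CENPI, -1.99) to SKA2 (0.11). CHR letters lie within 50 bases of the start in 13 genes, and the windows of SKA2 and CENPX each show 5 CCAAT matches and no CHR letters.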

How the data were processed

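Poly(A) RNA of 3 NC and 3 siGDF15 libraries was sequenced as read pairs of 150 bases. The submitters' processing notes name fastp, HISAT2, StringTie, edgeR and GRCh38, with versions and annotation release not given in the sources used here. The authors deposited FPKM values (per transcript length and per mapped fragments of the library, without further scaling) and expected counts, whole numbers worked out from coverage and not a tally of reads. The value 4 made up 15.6% of counts from 1 to 20, and all multiples of 4 made up 28.8%. Thus 1 read pair may be 4 counts, which these shares do not settle. Unused per-sample columns numbered 0.

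Expected counts of genes averaging 1 FPKM or more were fitted with edgeR 4.0.16 (quasi-likelihood test, TMM, two-sided, R 4.3.3), with Benjamini-Hochberg adjustment over 11867 genes and a call at adjusted p under 0.05. TMM factors were 1.03 to 1.04 in NC and 0.958 to 0.972 in siGDF15, so a fitted fold change lies slightly above the ratio of mean FPKM. The standard error of a fold change was computed from its F statistic. The fit was tested on simulated counts with 200 changed genes. Libraries of a group differed beyond sampling noise (chi-square per gene 3.28 to 17.5 on counts divided by 4), and none was taken as a copy of another. Ratios of FPKM used an exact permutation test in scipy 1.17.1.

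The genes, the lists and the rule for named genes were chosen with earlier results of these data known. The rule gave values in every library for CENPA, for the 2 genes of lowest adjusted p in each assembly, for genes not called and for the 3 most abundant in NC, and named the 3 of lowest adjusted p in each direction of the other lists. Some genes of these lists are not reported here by name. CENPC, PMF1 and SPC24 were added after their values were seen. Alternatives were other scaling, DESeq2 1.42.0, other filters, limma 3.58.1 on log2(FPKM + 1) or log2(FPKM + 0.1), counts divided by 4, a replicate block and each library left out.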

Additional observations from a re-analysis of the deposited data

How the results depend on the processing

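Across the alternatives, 34 or 35 of the 36 genes were called lower, 26 or 27 at 2-fold, and 0 higher, 29 of the other kinetochore genes and 12 cycling markers were lower, and GDF15 ranged from -1.02 to -0.86. The median of the 36 genes (-1.60) was -1.70 with library totals in place of TMM, -1.65 with no filter, -1.41 with limma on log2(FPKM + 1) and -1.66 with limma on log2(FPKM + 0.1), and from -1.60 to -1.53 with each library left out, while the median of all genes stayed between -0.100 and 0.073. The cause of these shifts was not tested. ZW10 was called lower with library totals and under both limma settings (adjusted p = 0.015, 0.016 and 0.016). The number of other kinetochore genes called higher (2) was 1 with library totals, the FPKM filter at 0.1 or dropped, both limma settings and the replicate block, and 1 to 2 with each library left out, PAFAH1B1 being the call lost. From 150 bases before to 50 after the start, CHR letters were in 15 genes, CCAAT in 18 and the E2F core in 4, and from 50 before to 50 after, a window added after the positions were seen, in 13, 9 and 1. No result reversed. Same-numbered libraries did not deviate together (correlations 0.0276, -0.0753 and 0.0458), so the numbers were not taken to pair the libraries. With the replicate block 34 of the 36 were lower, 27 at 2-fold, with a median of -1.60, and 3515 of all genes were lower and 3391 higher. The block turned no call among the 36. With 3 libraries per group no ratio between partners could pass its test.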
